A study of Mus musculus with 9 samples.

Results

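A set of 10 mast cell genes, out of 22180 genes with a single-symbol probe set, was followed in tumours of MMTV-Wnt1 mice and in normal mammary glands. They were chosen by name, with earlier results of these data known. The set holds the granule proteases Mcpt4, Cma1, Tpsb2, Tpsab1 and Cpa3 and the receptor genes Fcer1a, Ms4a2 and Mrgprb1. It also holds the histamine-forming enzyme Hdc and the transcription factor Gata2. Each of the 10 genes had exactly 1 probe set on the Affymetrix Mouse Gene 2.0 ST array. The 9 arrays came from 9 female FVB mice, with 3 arrays in each group. Metastatic tumours and non-metastatic tumours came from mice labelled Wnt1+/-, in which a mammary tumour virus promoter drives the Wnt1 transgene, at 281 to 300 days and 222 to 354 days of age. Normal glands came from wild-type littermates at 533 to 556 days. In any comparison with normal gland, tumour status therefore cannot be told apart from age or from genotype. All groups drank sucrose solution with doxycycline, and tumours were collected at a fixed size.

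Mast cells are tissue-resident immune cells that store histamine, heparin and proteases in granules and release them when the high-affinity IgE receptor is cross-linked or when Mas-related G protein-coupled receptors are engaged. Connective tissue mast cells of the mouse, which sit around vessels, in fat and in skin, are known for chymases, tryptases and a carboxypeptidase, whereas mucosal mast cells are known for Mcpt1 and Mcpt2. The mammary fat pad holds mast cells of the connective tissue kind. GATA factors and Mitf are transcription factors needed for the mast cell lineage.

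The promoters of 4 members that fell are shown because these genes moved together, and every member with a window was searched. RefSeq promoter windows (GRCm38.p6, 250 bases before to 50 bases after a start) were found for 8 of the 10 members, and not for Tpsb2 or Tpsab1. They were searched on both strands for AGATAA or TGATAA and for the variants AGATAG or else TGATAG, the forms GATA factors are known to bind, and for CACGTG and CATGTG, known from Mitf. At least 1 GATA form was present in 7 of the 8 members, against 29.8% of all 32851 windows in the table. These were Cpa3, Mcpt4, Cma1, Ms4a2, Mrgprb1, Fcer1a and also Hdc, which did not follow the proteases, so the count is not limited to members that fell. The exception was Gata2, whose 2 windows held none. The Mitf forms were present in 1 of the 8 members, Fcer1a, and in 20.4% of all windows. The 250 bases before the start are printed 5′ to 3′ for 4 genes, all on the minus strand, with matches in capitals. They lie at chr3:20242182-20242431 for Cpa3, chr14:56062311-56062560 for Mcpt4, chr14:55944676-55944925 for Cma1 and chr19:11623720-11623969 for Ms4a2.
Cpa3: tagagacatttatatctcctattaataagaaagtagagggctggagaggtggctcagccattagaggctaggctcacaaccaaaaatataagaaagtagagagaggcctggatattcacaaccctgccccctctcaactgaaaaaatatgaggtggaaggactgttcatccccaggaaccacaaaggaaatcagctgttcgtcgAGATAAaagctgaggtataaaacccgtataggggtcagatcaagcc
Mcpt4: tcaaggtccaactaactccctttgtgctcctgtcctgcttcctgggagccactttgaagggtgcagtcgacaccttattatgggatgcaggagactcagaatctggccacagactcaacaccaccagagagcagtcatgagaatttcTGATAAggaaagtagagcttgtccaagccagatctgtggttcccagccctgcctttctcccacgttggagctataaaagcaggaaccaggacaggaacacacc
Cma1: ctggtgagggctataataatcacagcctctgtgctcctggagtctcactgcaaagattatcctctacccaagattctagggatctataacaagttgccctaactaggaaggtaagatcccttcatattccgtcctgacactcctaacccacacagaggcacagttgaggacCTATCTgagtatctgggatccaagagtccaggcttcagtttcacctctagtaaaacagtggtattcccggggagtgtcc
Ms4a2: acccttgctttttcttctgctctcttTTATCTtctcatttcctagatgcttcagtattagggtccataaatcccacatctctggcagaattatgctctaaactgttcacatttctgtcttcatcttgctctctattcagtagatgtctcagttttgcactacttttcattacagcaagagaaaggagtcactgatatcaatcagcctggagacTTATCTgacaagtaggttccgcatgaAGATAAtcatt
The match in Cpa3 is AGATAA and begins at position -46 from the start. Mcpt4 holds TGATAA at -103, and Cma1 holds CTATCT, the other strand of AGATAG, at -79. Ms4a2 holds AGATAA or its other strand TTATCT 3 times, at -224, -37 and -11. No match overlapped another. A match describes these letters and is no evidence of binding.

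Of the 5 granule proteases 4 fell in tumours, namely Cpa3, Mcpt4, Cma1 and Tpsb2, and Tpsab1 did not pass. Cpa3, mast cell carboxypeptidase A, stood at 6.91, 6.92 and 5.47 in metastatic tumours and at 8.69, 4.92 and 7.13 in non-metastatic tumours, against 11.25, 11.87 and 10.68 in normal glands (log2 RMA value, replicates 1 to 3). Every tumour lay below every normal gland. Mcpt4, a chymase of connective tissue mast cells, had 5.19, 5.22 and 3.93 in metastatic tumours and 6.47, 3.22 and 5.67 in non-metastatic tumours, against 9.52, 10.47 and 9.03 in normal glands. The groups were again separate, and the same 2 tumours, metastatic tumour 3 and non-metastatic tumour 2, were the lowest for both genes. In limma's model over all genes, Cpa3 fell by 4.83 on the log2 scale in metastatic tumours (SE 0.87, adjusted p = 0.015) and fell by 4.35 in non-metastatic tumours (SE 0.87, adjusted p = 0.016). Mcpt4 fell by 4.89 in metastatic tumours (SE 0.81, adjusted p = 0.012) and fell by 4.55 in non-metastatic tumours (SE 0.81, adjusted p = 0.011). Over all tumours the measured signals differed 24.1-fold for Cpa3 and 26.4-fold for Mcpt4. Mcpt4 lay under the 30th percentile of the array in 2 tumours, so its fold may understate the difference.

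Cma1, the other chymase, had 5.63, 5.74 and 5.52 in metastatic tumours and 6.70, 5.78 and 6.16 in non-metastatic tumours, against 8.09, 9.36 and 7.94 in normal glands. Its values hardly varied among metastatic tumours (SD 0.11, n = 3). Tpsb2, the tryptase that mast cells release bound to heparin, had 5.84, 5.42 and 5.32 in metastatic tumours and 6.52, 5.06 and 5.79 in non-metastatic tumours, against 8.80, 9.69 and 8.00 in normal glands. Both genes were lower in every tumour than in every normal gland. Cma1 fell by 2.84 in metastatic tumours (SE 0.38, adjusted p = 0.0061) and fell by 2.26 in non-metastatic tumours (SE 0.38, adjusted p = 0.0097). Tpsb2 fell by 3.31 in metastatic tumours (SE 0.47, adjusted p = 0.0077) and fell by 3.04 in non-metastatic tumours (SE 0.47, adjusted p = 0.0082).

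Tpsab1, the other tryptase gene, had a different distribution. It had 5.20, 4.87 and 4.70 in metastatic tumours and 5.45, 5.16 and 4.78 in non-metastatic tumours, against 5.71, 7.36 and 5.33 in normal glands. Non-metastatic tumour 1 lay above normal gland 3, and normal gland 2 stood far above the other glands. The change was -1.21 in metastatic tumours (95% confidence interval -2.30 to -0.12, adjusted p = 0.13). In non-metastatic tumours its interval was -2.09 to 0.09 (adjusted p = 0.18), and neither passed. RefSeq lists Tpsab1 as a transcribed pseudogene in the C57BL/6J reference, and these mice were FVB. Tpsb2 and Tpsab1 are close paralogs, so signal shared between their probes cannot be told apart here.

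**Figure D1:**
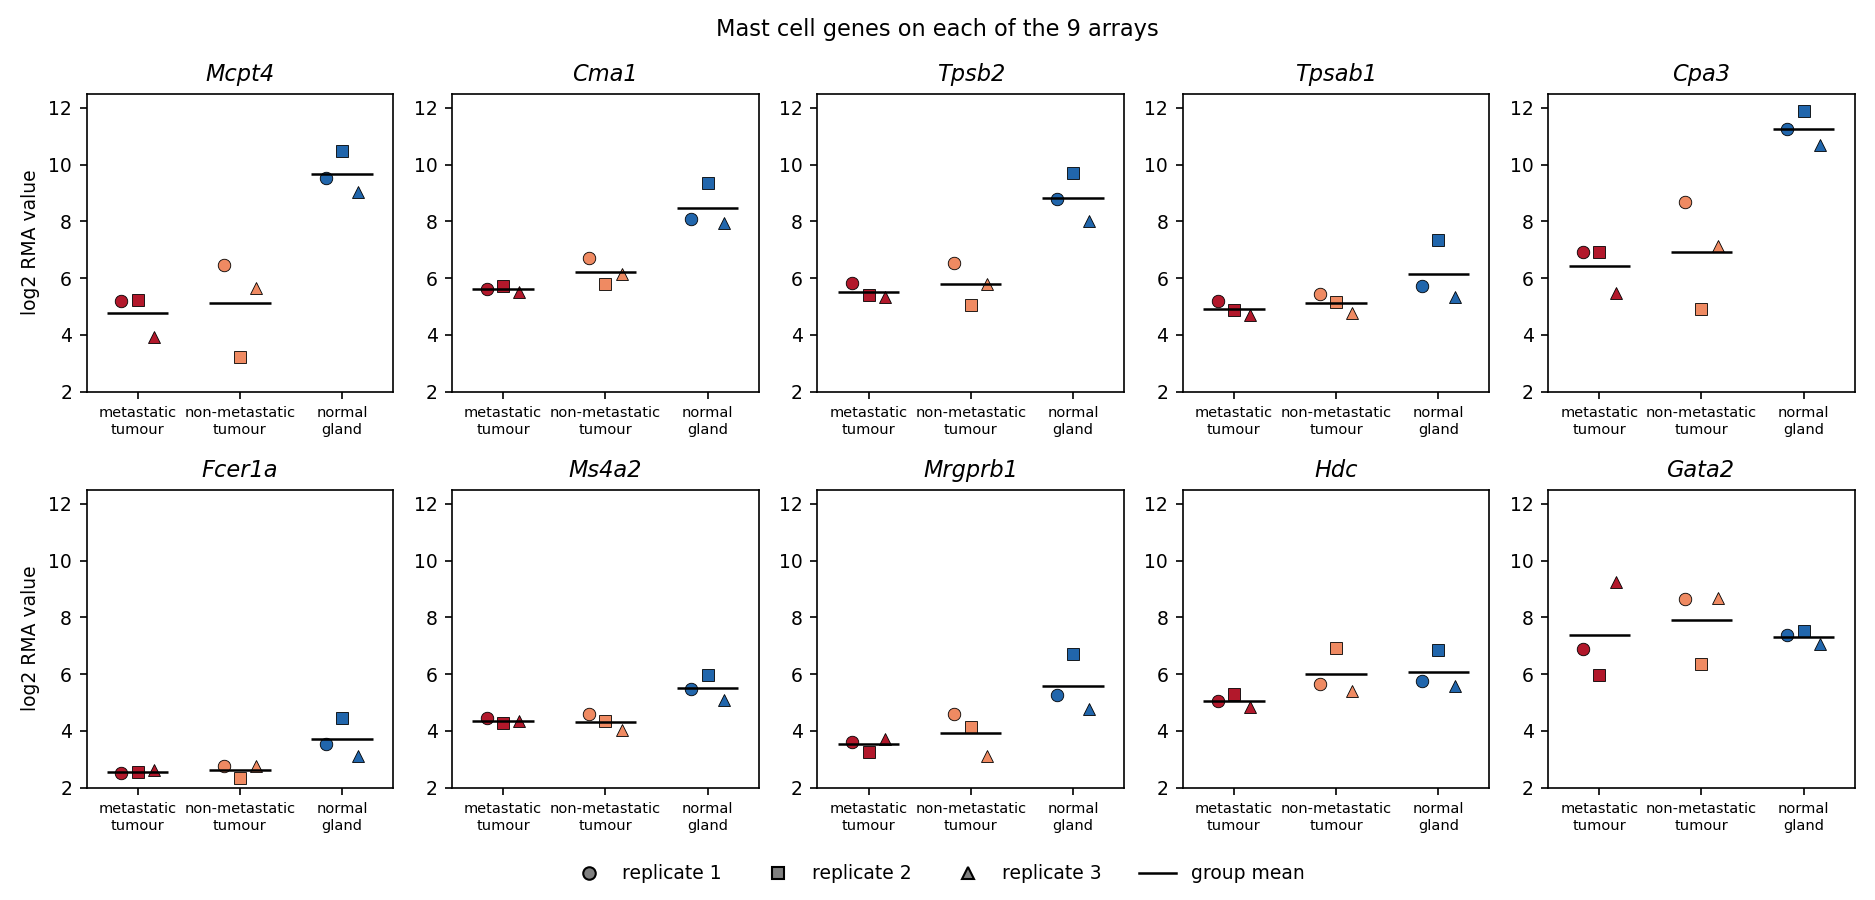
Log2 RMA value (y axis) of the 10 mast cell genes in metastatic tumours, non-metastatic tumours and normal glands (x axis), 1 point per array with its replicate shown by shape and a line at the group mean. Cpa3, Mcpt4, Cma1, Tpsb2 and Ms4a2 lie lower in all 6 tumours than in the 3 normal glands, Hdc and Gata2 do not, and normal gland 2 is the highest normal gland for each gene.

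Of the 3 receptor genes, 1 could enter the main test. Ms4a2, the beta chain of the IgE receptor, had 4.45, 4.27 and 4.36 in metastatic tumours and 4.58, 4.34 and 4.05 in non-metastatic tumours, against 5.46, 5.97 and 5.08 in normal glands. It fell by 1.14 in metastatic tumours (SE 0.23, adjusted p = 0.020) and fell by 1.18 in non-metastatic tumours (SE 0.23, adjusted p = 0.014). Genes were tested only if they lay above the 30th percentile of their array, 4.83 to 4.95, on at least 3 arrays. Ms4a2 met this on 3 arrays, all of them normal glands, so it could be tested only because it was higher there. Its tumour values all lay below that level.

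Fcer1a, the IgE-binding alpha chain, reached that level on 0 arrays, and Mrgprb1, a Mas-related receptor, on 2, so neither entered the main test. Fcer1a had 2.51, 2.56 and 2.62 in metastatic tumours and 2.78, 2.36 and 2.78 in non-metastatic tumours, against 3.54, 4.47 and 3.12 in normal glands. Mrgprb1 had 3.62, 3.26 and 3.73 in metastatic tumours and 4.58, 4.13 and 3.11 in non-metastatic tumours, against 5.26, 6.71 and 4.79 in normal glands. Every tumour was below every normal gland for both genes. In a fit of all 22180 genes without the filter, Mrgprb1 fell by 2.05 in metastatic tumours (SE 0.52, adjusted p = 0.047), and its change of -1.65 in non-metastatic tumours did not pass (SE 0.52, adjusted p = 0.072). In the same fit Fcer1a did not pass, at -1.15 in metastatic tumours (SE 0.30, adjusted p = 0.054) and -1.07 in non-metastatic tumours (SE 0.30, adjusted p = 0.053).

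Hdc and Gata2 did not follow the proteases. Hdc, which makes histamine from histidine, had 5.04, 5.29 and 4.86 in metastatic tumours and 5.66, 6.93 and 5.41 in non-metastatic tumours, against 5.75, 6.86 and 5.59 in normal glands. Non-metastatic tumour 2, the tumour with the lowest Mcpt4 and Cpa3, had the highest Hdc value of the 9 arrays. The same tumour and normal gland 2 also shared the highest value of Ptgs2, the inducible prostaglandin synthase (7.85 in each), a gene named after its values were seen. All metastatic tumours lay below all normal glands for Hdc, but the change did not pass (95% confidence interval -2.03 to 0.03, adjusted p = 0.17). In non-metastatic tumours it was -0.07 (-1.10 to 0.96, adjusted p = 0.94).

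Gata2, which is also expressed in endothelial and other cells, had 6.88, 5.98 and 9.26 in metastatic tumours and 8.66, 6.37 and 8.68 in non-metastatic tumours, against 7.39, 7.52 and 7.05 in normal glands. It varied far more among tumours than among glands (SD 1.69 and 1.33 in the metastatic and non-metastatic groups, against 0.24 for normal glands, n = 3 each). Tumours lay both above and below the glands. The change was 0.05 in metastatic tumours (95% confidence interval -1.97 to 2.08, adjusted p = 0.97) and 0.59 in non-metastatic tumours (-1.43 to 2.61, adjusted p = 0.68).

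In all, 5 of the 8 members tested fell for metastatic tumours, 5 for non-metastatic tumours and 5 for all tumours together, namely Cpa3, Mcpt4, Cma1, Tpsb2 and Ms4a2 each time, and 0 rose. Ms4a2 was tested only because it was high in normal glands; without it the count was 4 of 7. Of all 17478 genes tested, 6.00%, 7.60% and 9.13% fell in these comparisons, and 7.35%, 11.2% and 13.6% rose. The members were chosen with earlier results of these data known, so such shares are given as a description. In the fit without the filter 6, 5 and 7 of the 10 members fell, against 4.30%, 5.55% and 7.01% of all genes. Groups did not overlap and tumours were lower for 9 of the 10 members for metastatic tumours, 7 for non-metastatic tumours and 7 for all tumours together, against 14.1%, 12.6% and 8.87% of all 22180 genes. The median change over the 10 members was -1.63 for metastatic tumours, -1.42 for non-metastatic tumours and -1.51 for all tumours together, against 0.01, 0.03 and 0.02 over all 22180 genes. The metastatic and non-metastatic comparisons share the same normal glands. In bulk tissue, fewer mast cells and less RNA of these genes per mast cell cannot be told apart.

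**Figure D2:**
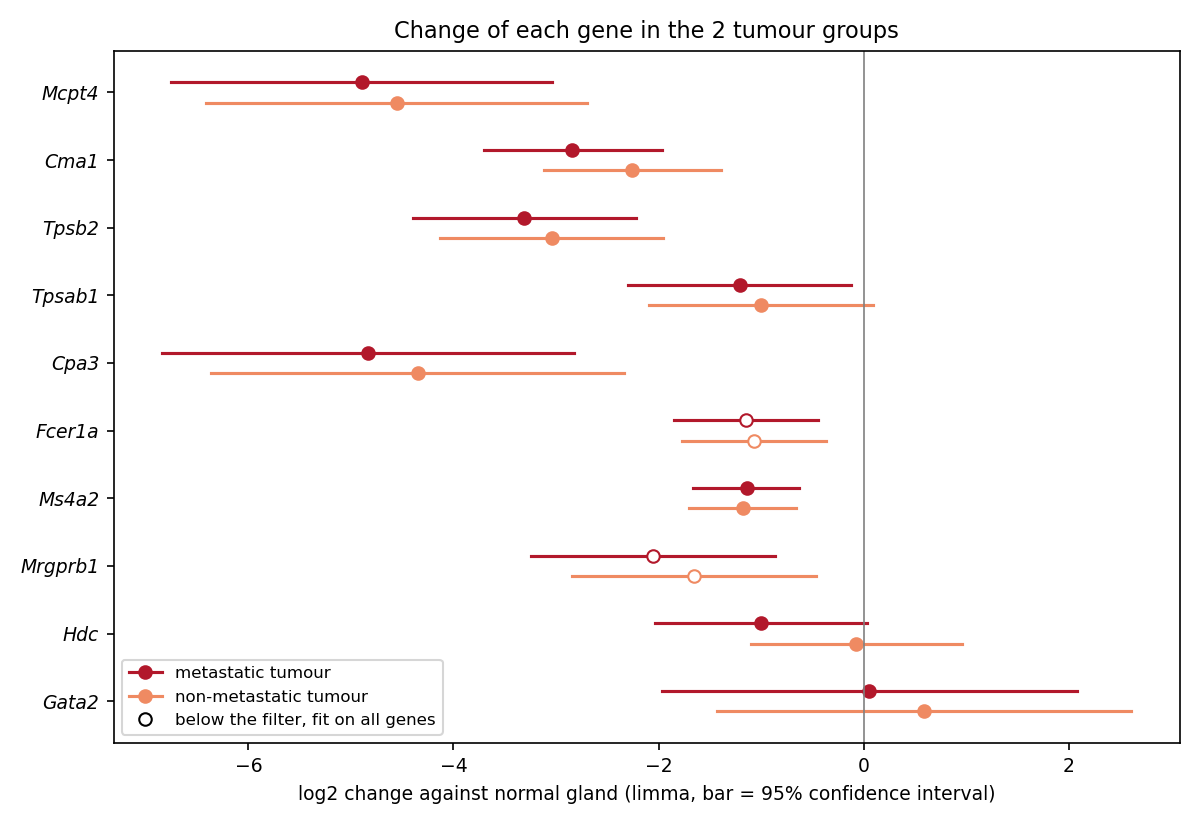
Log2 change against normal gland (x axis) of each gene (rows) in metastatic tumours and in non-metastatic tumours, with bars for the 95% confidence interval from limma. Filled points are genes that passed the filter and open points are Fcer1a and Mrgprb1 from the fit on all genes. The intervals of Cpa3, Mcpt4, Cma1, Tpsb2 and Ms4a2 lie below 0 in each tumour group, and those of Gata2 span 0.

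Between metastatic and non-metastatic tumours, 0 of the 8 members tested with limma passed, where 1 of 17478 genes (0.00572%) did. At an unadjusted p under 0.05 the count of members was also 0, against 5.07% of all genes. Of the 10 members, 9 had a negative difference, as had 54.3% of the 17478 genes tested, with a median of -0.37 against -0.02 over all 22180 genes. The largest was that of Hdc, at -0.94 (95% confidence interval -1.96 to 0.09, adjusted p = 0.88), with metastatic tumours at 5.06 ± 0.22 and non-metastatic tumours at 6.00 ± 0.82 (SD, n = 3 each). Cma1 differed by -0.58 (-1.45 to 0.29, adjusted p = 0.88), Cpa3 by -0.48 (-2.49 to 1.53, adjusted p = 0.95) and Mcpt4 by -0.34 (-2.20 to 1.51, adjusted p = 0.96). These intervals allow differences of several-fold either way for Cpa3 and Mcpt4. All metastatic tumours lay below all non-metastatic tumours for Hdc and Cma1, 2 of the 10 members, against 5.69% of all 22180 genes. Without non-metastatic tumour 1, the tumour with the highest proteases, the differences of Mcpt4 and Cpa3 turned to 0.33 and 0.40.

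The members varied in the same order at both ends among normal glands, and most shared the highest array among non-metastatic tumours. Among normal glands, gland 2 was the highest and gland 3 the lowest for 10 of 10 members. The means of the leukocyte, macrophage, basophil, endothelial and adipocyte markers had this order too. Those of the eosinophil, fibroblast, epithelial, skeletal muscle and epidermis markers did not. The share of all genes with this order, or with the orders among tumours given below, was not computed. Non-metastatic tumour 1 was the highest of its group for 8 of 10 members, and the exceptions were Hdc and Gata2. The lowest of that group was tumour 2 for 6 members and tumour 3 for 4. Among metastatic tumours the highest value fell in tumour 1 for 3 members, tumour 2 for 4 and tumour 3 for 3. Over the 9 arrays, pairs among the 8 protease and receptor genes correlated with a median r of 0.92 (28 pairs, 0.75 to 1.00), where tumours and glands differ. After group means were subtracted the median was 0.78 (0.25 to 0.98). Gata2 correlated with the other members at a median of -0.02 over 9 arrays (-0.33 to 0.07), and Hdc at a median of 0.47 (-0.33 to 0.66). Without normal gland 2 the median for Hdc was 0.01 (-0.41 to 0.38). These values describe arrays that share tissue make-up and normalization.

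Normal gland 2 stands apart from the other glands in these data. Its mean over 6 epidermis markers was 10.88, against 5.85 and 5.92 in glands 1 and 3, and its mean over 6 skeletal muscle markers was 10.35, against 6.08 and 6.47. Skin is known as a tissue rich in mast cells, and whether it contributed to the mast cell signal of this array was not tested. Without this array Mcpt4 fell by 4.50 in metastatic tumours (adjusted p = 0.040) and fell by 4.16 in non-metastatic tumours (adjusted p = 0.039), and Cma1 and Tpsb2 also kept their calls. Cpa3 then had changes of -4.53 and -4.05 that did not pass (adjusted p = 0.053 for each), and Ms4a2 no longer met the filter. Of 7 members then tested, the count called was 3 for metastatic tumours, 3 for non-metastatic tumours and 4 for all tumours together. The share of all genes called without this array is not given here. The change of Tpsab1 shrank to -0.59 in metastatic tumours (adjusted p = 0.19) and -0.39 in non-metastatic tumours (adjusted p = 0.35). Without normal gland 1 the changes of Cpa3 were -4.84 and -4.36 (adjusted p = 0.052 for each).

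Few other protease genes of the family could be tested. Of 9 further granule serine proteases, 4 passed the filter (Tpsg1, Cma2, Gzmb and Prss34), and limma called 0 in any comparison (1, Tpsg1, had an unadjusted p under 0.05 in metastatic and in all tumours). Of all genes tested, 9.13% fell and 13.6% rose in all tumours, and with 4 genes a count of 0 is not set apart from these shares. Mcpt1 and Mcpt2, the chymases of mucosal mast cells, lay between 3.36 and 4.12 and between 2.45 and 3.06 over all arrays, with overlapping groups. Mcpt8 and Prss34, proteases of basophils, lay between 4.58 and 4.96 and between 4.77 and 5.14, also with overlapping groups.

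Further receptors of mast cells did not move as one. Of 15 listed, 11 were tested, of which 4 fell (Il3ra, Csf2rb, Csf2rb2 and Ptger3) and 1 rose (Kit) in all tumours against normal glands. Of all genes tested, 9.13% fell and 13.6% rose in that comparison. Mrgprb2, the receptor for basic secretagogues and a relative of Mrgprb1, was below the filter, at 3.81, 3.48 and 3.63 in metastatic tumours and 4.08, 3.62 and 3.63 in non-metastatic tumours, against 4.81, 5.69 and 4.59 in normal glands. Its groups did not overlap, as for Mrgprb1. Csf2rb, the beta chain shared by the receptors for interleukin-3, interleukin-5 and GM-CSF, fell by 0.90 (SE 0.13, adjusted p = 0.0042), and its relative Csf2rb2 fell by 0.98 (SE 0.19, adjusted p = 0.011). Ptger3, a prostaglandin E2 receptor also found in fat, fell by 4.04 (SE 0.28, adjusted p = 0.00024).

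Kit and Fcer1g went another way from the proteases. Kit, the stem cell factor receptor on which mast cells depend and which mammary epithelial cells also carry, had 11.55, 12.01 and 11.70 in metastatic tumours and 11.79, 11.21 and 11.72 in non-metastatic tumours, against 10.54, 9.21 and 10.36 in normal glands. All tumours lay above all glands, and Kit rose by 1.63 over all tumours (SE 0.30, adjusted p = 0.0087). Fcer1g, the gamma chain that the IgE receptor shares with the Fc receptors of other leukocytes, had group means of 10.61 ± 0.03 for metastatic and 10.60 ± 0.52 for non-metastatic tumours, against 10.61 ± 0.34 for normal glands (SD, n = 3 each). Its groups overlapped, and it did not pass (adjusted p = 1 over all tumours). A further receptor, Il1rl1, was not analysed here.

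**Figure D3:**
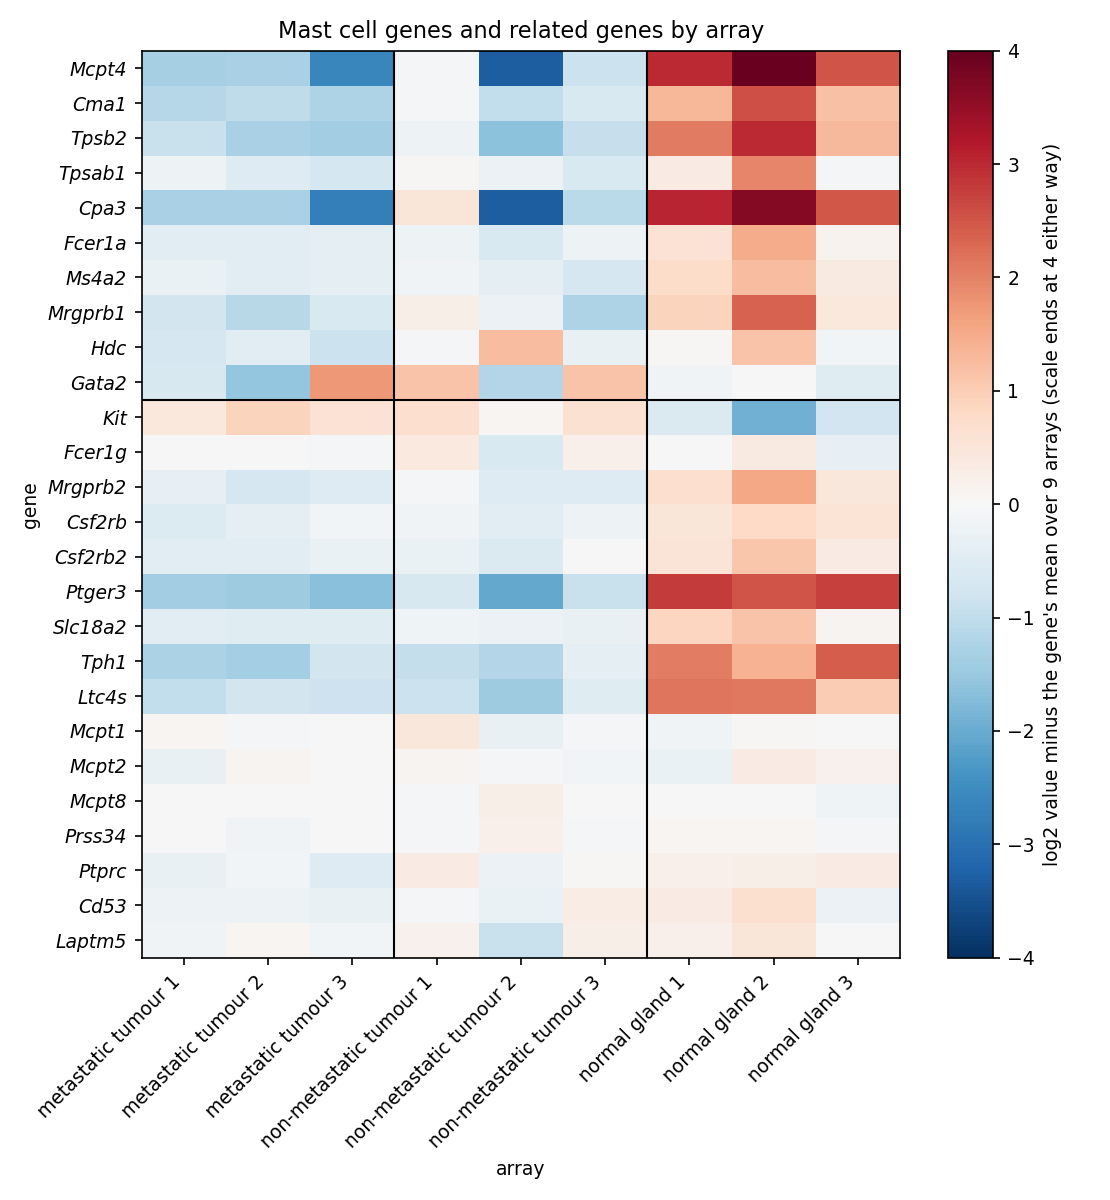
Colour gives each log2 value relative to that gene's average across 9 arrays, for the 10 mast cell genes, above the horizontal line, and for related genes below it, on each array (columns, with metastatic tumours left, non-metastatic tumours in the middle and normal glands right). Cpa3, Mcpt4, Cma1, Tpsb2, Mrgprb2, Ptger3, Tph1 and Ltc4s are low in tumours and high in normal glands, Kit is reversed, and Fcer1g, Mcpt1, Mcpt2, Mcpt8 and the leukocyte genes Ptprc, Cd53 and Laptm5 vary little between groups.

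Among 12 tested genes of granule content and lipid mediators, 3 fell and 0 rose in all tumours against normal glands, beside 9.13% and 13.6% of all genes. Slc18a2, the transporter that loads histamine and serotonin into granules, fell by 1.05 (SE 0.20, adjusted p = 0.0098). Tph1, the enzyme that starts serotonin synthesis, fell by 2.93 (SE 0.27, adjusted p = 0.00094), and Ltc4s, leukotriene C4 synthase, fell by 2.63 (SE 0.29, adjusted p = 0.0019). Slc18a2 was highest in normal gland 2 (6.90), like the members, whereas Tph1 was lowest there among the glands, at 7.63 against 8.29 and 8.66 in glands 1 and 3. Srgn, the proteoglycan core of the granule that other leukocytes make too, changed by -0.01 (SE 0.18, adjusted p = 0.99).

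Calls among signalling, lineage and ligand genes in all tumours against normal glands stand beside 9.13% of all genes that fell and 13.6% that rose. Of 13 tested genes downstream of the IgE receptor, which other leukocytes share, Syk and Prkcb fell, Plcg2 rose and 10 did not pass. The kinase Syk fell by 0.73 (SE 0.18, adjusted p = 0.026), and the phospholipase Plcg2 rose by 1.13 (SE 0.32, adjusted p = 0.037). Of 10 transcription factors, Lmo2 fell by 0.59 (SE 0.11, adjusted p = 0.011), Runx1 rose by 1.22 (SE 0.24, adjusted p = 0.011) and 8 did not pass. Mitf did not pass, at -0.79 (SE 0.33, adjusted p = 0.12). Of 7 tested ligands, the chemokine Cxcl12 fell by 1.73 (SE 0.33, adjusted p = 0.0098) and 6 did not pass, among them Kitl, the ligand of Kit, at 0.17 (SE 0.36, adjusted p = 0.77), and the alarmin Il33 at 1.04 (SE 0.70, adjusted p = 0.32).

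Markers of other cells are given for the same arrays. Their calls in all tumours, here and in the next paragraph, stand beside 9.13% of all genes that fell and 13.6% that rose. Of 6 leukocyte markers 0 passed in all tumours against normal glands (1, Ptprc, had an unadjusted p under 0.05), with a median of -0.26. Their mean level was 7.50 to 7.80 in metastatic tumours and 7.49 to 8.02 in non-metastatic tumours, against 7.82 to 8.05 in normal glands. Non-metastatic tumours thus overlapped with normal glands, and metastatic tumours lay just below them. The mean of the 5 mast cell proteases was 4.99 to 5.75 in metastatic tumours and 4.83 to 6.76 in non-metastatic tumours, against 8.20 to 9.75 in normal glands, without overlap. Of 7 macrophage markers 2 fell, Cd163 and Lyz2. The scavenger receptor Cd163 fell by 2.15 (SE 0.52, adjusted p = 0.021) and the lysozyme Lyz2 fell by 1.06 (SE 0.30, adjusted p = 0.037). Of 5 eosinophil markers with a probe set 0 passed among the 4 tested in all tumours (0 also at an unadjusted p under 0.05), and of 3 tested basophil markers Cyp11a1 fell by 1.22 while 2 did not pass (SE 0.32, adjusted p = 0.028).

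Stromal and fat markers were lower in tumours together with the mast cell genes. All 6 adipocyte markers tested fell, with a median of -5.59. Their mean level was 5.85 to 6.82 in metastatic tumours and 5.60 to 7.75 in non-metastatic tumours, against 11.33 to 12.30 in normal glands. Of 6 fibroblast markers, Dcn and Dpt fell and 4 did not pass, with a median of -1.71 and mean levels of 8.64 to 9.62 in metastatic tumours and 6.95 to 10.12 in non-metastatic tumours, against 10.89 to 11.18 in normal glands. Dpt, which encodes the skin and stromal matrix protein dermatopontin, fell by 4.50 (SE 0.80, adjusted p = 0.0080). Of 6 endothelial markers, Kdr, the main VEGF receptor, fell by 1.54 (SE 0.25, adjusted p = 0.0060) and 5 did not pass. Of 5 epithelial markers, Epcam, Krt18 and Cdh1 rose and 2 did not pass. The part of these shifts in the lower mast cell values was not tested.

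**Figure D4:**
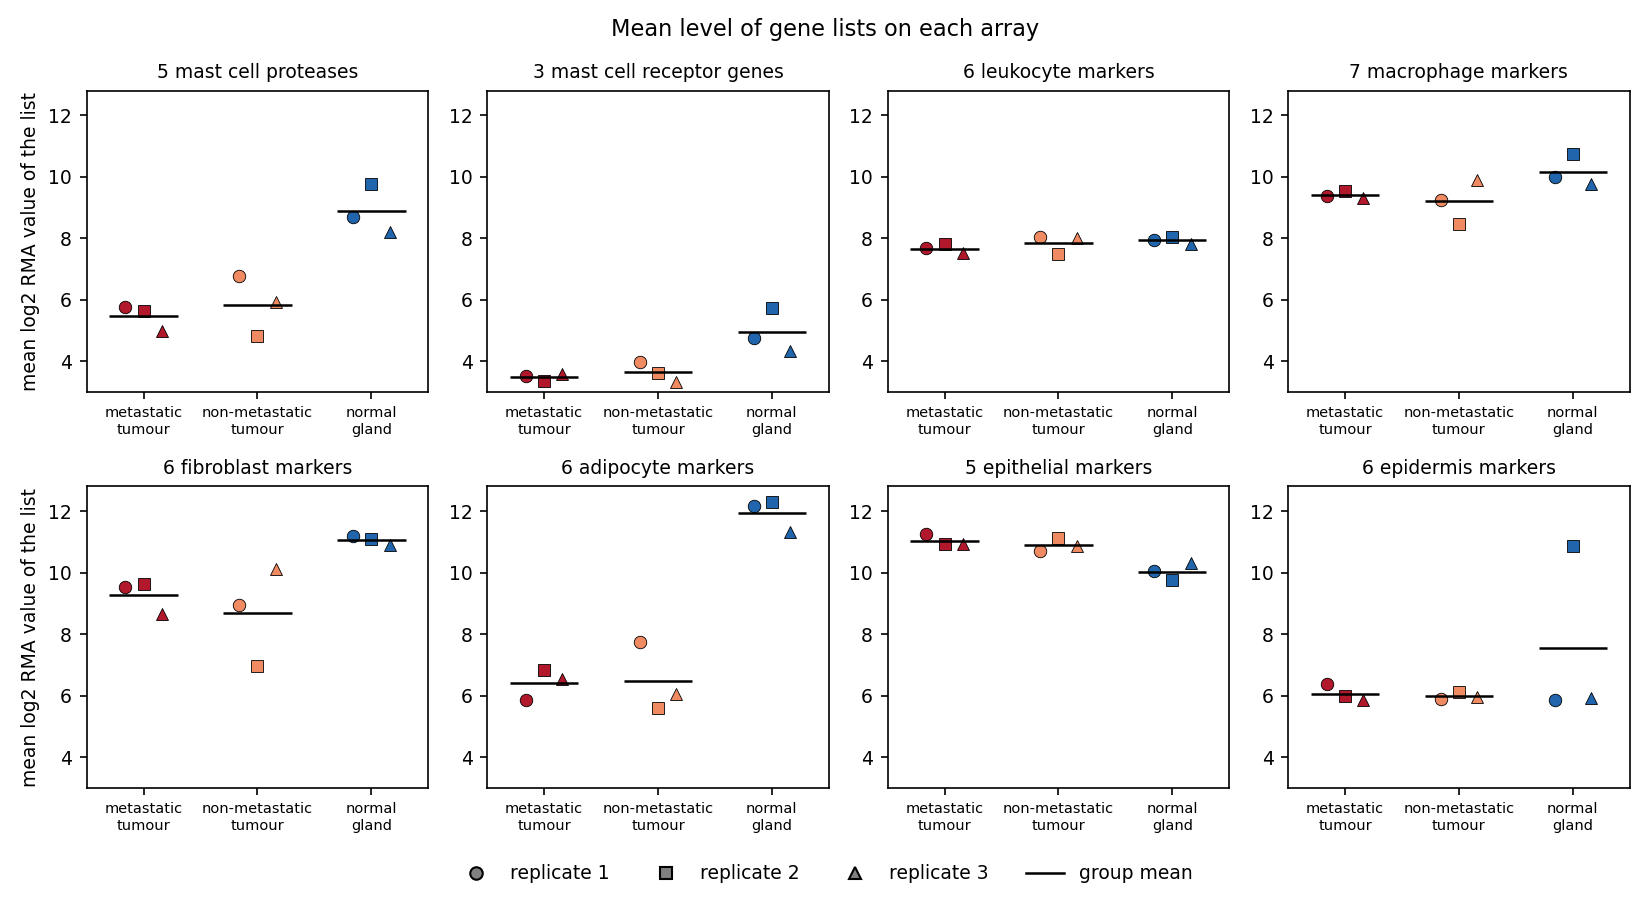
Mean log2 RMA value of gene lists (y axis) in metastatic tumours, non-metastatic tumours and normal glands (x axis), 1 point per array with its replicate shown by shape and a line at the group mean. The mast cell proteases, mast cell receptor genes, fibroblast markers and adipocyte markers are lower in all tumours than in all glands. The epithelial markers are higher in all tumours. The leukocyte and macrophage markers overlap with glands in non-metastatic tumours and not in metastatic tumours. Normal gland 2 stands alone for the 6 epidermis markers.

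The genes most like Cpa3 over the 9 arrays were sought among all genes tested. Mcpt4 was the closest (r = 1.00 when rounded), and Tpsb2 ranked at 19 and Cma1 at 75. Outside the members the 10 closest were Wnt2, Hvcn1, Pi16, Itgb7, Adgrd1, Sod3, Fxyd1, Dpt, Thbs3 and Cd209d, with r from 0.97 to 0.98. All 10 fell in all tumours against normal glands, Dpt most (-4.50) and Wnt2 least (-0.85), where 9.13% of all genes fell. They were picked by their correlation with Cpa3 over the same arrays, so their fall follows from the choice and is no separate result. After group means were subtracted, the closest gene outside the members was Higd2a (r = 0.98), and Mcpt4 ranked at 2 (r = 0.98), Tpsb2 at 293 (r = 0.82) and Cma1 at 883 (r = 0.70). The other 9 of the closest 10 were Slfn5, Slamf9, Ifi205, Ifi204, Dnlz, Clec4f, Efemp1, Cox18 and Nkain1, and none of the first list was among them. The 9 arrays in 3 groups leave few independent values behind these r, and they are given as a description.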

How the data were processed

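Total RNA from frozen mammary tissue was put on arrays by the submitters. The deposited values are log2 RMA signals of 41345 probe sets, per the submitters' processing notes and the file's values; RMA corrects background, equalises array distributions and summarises probes, and equalising can hide a shift of all genes. Its version and the genome build are not given in the sources used here.

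A platform annotation gave 23521 probe sets a single symbol, 1814 several, and 16010 were not listed. The probe set with the highest mean stood for a gene (22180 genes). The main test kept 17478 genes that exceeded the 30th percentile of an array in 3 or more arrays. limma 3.58.1 (R 4.3.3) estimated group means from the 9 arrays jointly, with Benjamini-Hochberg adjustment over all genes tested and a threshold of 0.05, two-sided. SE is limma's moderated SE. The fit was tested on simulated data.

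The members and the gene lists were chosen with earlier results of these data known. All members, up to 4 genes per list with the largest change over all tumours, Kit, Fcer1g, Mrgprb2 and Mitf, and the 10 genes most like Cpa3 were named by rule. Names from marker counts and Srgn, Mcpt1, Mcpt2, Mcpt8, Ptgs2 and the genes of the plots were added after values were seen. The titles do not say that replicates with 1 number share an animal or a batch. The number of arrays limits the precision. The alternatives tried were other filters, probe set rules, scalings, eBayes options, array weights, fewer groups, a replicate block, age as a covariate and each array left out.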

Additional observations from a re-analysis of the deposited data

How the results depend on the processing

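Over 20 to 22 alternatives per comparison, the number of members called was 0 in every alternative between metastatic and non-metastatic tumours. Apart from the fit without the filter, the shares of all genes called in these alternatives are not given here. Leaving out 1 array gave 3 to 5 members in metastatic tumours against normal glands, 3 to 5 in non-metastatic tumours and 4 to 5 in all tumours together, of 5 each. The count of 3 came without normal gland 1, without normal gland 2 and, in metastatic tumours, without metastatic tumour 3, where Cpa3 had an adjusted p of 0.057 and Ms4a2 of 0.066. Without any 1 normal gland Ms4a2 no longer met the filter. The calls of Mcpt4, Cma1 and Tpsb2 against normal glands held in each alternative run, with adjusted p up to 0.046. Array weights, which gave normal gland 1 a weight of 7.50, called Tpsab1 in metastatic tumours (adjusted p = 0.036) and in all tumours together (adjusted p = 0.038), and leaving out normal gland 3 called it in all tumours together (adjusted p = 0.038).

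Of 648 single values, 17 changed sign, all of them of uncalled results. Hdc in non-metastatic tumours against normal glands was 0.02 with quantile normalization, 0.03 with median centring and 0.28 with array weights, and ran from -0.53 to 0.33 with 1 array left out. It was also 0.33 without the filter and normal gland 2, an alternative chosen after seeing the data. In that fit 4, 4 and 6 of the 10 members were called in metastatic, non-metastatic and all tumours. Its share of all genes called is not given here. With 1 array left out, the differences between metastatic and non-metastatic tumours ran from -1.29 to 0.33 for Mcpt4, -0.63 to 0.10 for Tpsb2, -1.48 to 0.40 for Cpa3, -0.10 to 0.17 for Ms4a2 and -1.47 to 0.16 for Gata2. Gata2 ran from -0.89 to 0.75 in metastatic tumours and from -0.15 to 0.70 in all tumours against normal glands.

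The replicate block gave 5, 5, 5 and 0 members called, as without it. Same-numbered arrays deviated from their group means with r between -0.28 and 0.17, so the numbers were not taken as pairs.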
